A study of Mus musculus with 8 samples.

Results

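Tubulins are the protein subunits of microtubules, and the genes described here are the 10 members Tuba1a, Tuba1b, Tuba4a, Tuba8, Tubb2a, Tubb2b, Tubb5, Tubb6, Tubg1 and Tubg2 in hearts of mice deficient in the histone deacetylase HDAC3. Members were looked up by symbol in the platform's gene table among transcript clusters (sets of probes that read 1 gene or transcript) that carry 1 symbol only, and clusters were to be selected on mean brightness over all 8 arrays where a gene had several. Of the 10 members 9 had a cluster, out of 19933 genes on the array, and each of the 9 had exactly 1, so brightness decided nothing. Tuba1b has no cluster to itself and is described only through clusters it shares. The KO and WT difference was not part of the rule, but the gene set was drawn up with results of these data known, so its p-values are not independent evidence.

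Hearts of 4 male HDAC3-deficient mice (KO, called MCH3-KO in the design text) were set against hearts of 4 male wild-type mice (WT). All were C57BL/6, 6 weeks old and fed normal chow, and total RNA of each heart was hybridised to 1 Affymetrix Mouse Gene array. The labels do not state which heart cells lost the gene. Hdac3 itself averaged 8.57 ± 0.05 in KO and 10.10 ± 0.08 in WT hearts (log2 intensity, SD, n = 4), a difference of -1.54 (SE 0.05, adjusted p = 9.19e-08, limma), and no array went against its label. The 10 cardiomyocyte markers examined read between 11.39 and 13.35 on all arrays, so the RNA matched the labelled tissue. Array medians lay between 54.1 and 56.5 intensity units, and limma's array weights were 0.445 for KO replicate 4 and 0.455 for WT replicate 2, against 0.838 to 2.72 for the other arrays.

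Microtubules are built from dimers of alpha and beta tubulin, and gamma tubulin sits in a ring complex that starts new filaments. Each class is encoded by several genes whose products, the isotypes, differ mainly in their tails, where enzymes add or remove tyrosine, glutamate or glycine. Acetyl groups are added to and removed from a lysine of alpha tubulin on the inner face of the microtubule. In heart muscle cells the microtubule network carries cargo and mRNA and resists shortening, and a dense, detyrosinated network is a known feature of hypertrophied and failing hearts. Cells also degrade tubulin mRNA when free dimers are abundant.

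All 9 measured tubulin genes read higher on average in KO than in WT hearts, and 7 of them passed the test at an adjusted p under 0.05 (limma, Benjamini-Hochberg over all genes tested) while 0 fell. Over all 14950 genes tested, 10.8% were called higher and 13.9% lower in KO. The gamma tubulin gene Tubg2 rose most, 1.87-fold, followed by the beta tubulin gene Tubb6 (1.46-fold) and by Tubg1 (1.4-fold). The other risers were Tubb5, Tubb2a, Tuba4a and Tuba1a, at 1.15-fold to 1.31-fold. Tuba8 and Tubb2b did not pass. KO values lay wholly above WT values for 4 members, namely Tubg2, Tubg1, Tubb6 and Tuba4a, a pattern seen in 11.7% of all genes tested. The median difference was 0.36 over the 9 members and -0.01 over all genes tested, on the log2 scale. Whole hearts were measured, so a change in the share of a cell type and a change in RNA per cell cannot be told apart.

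**Figure D1:**
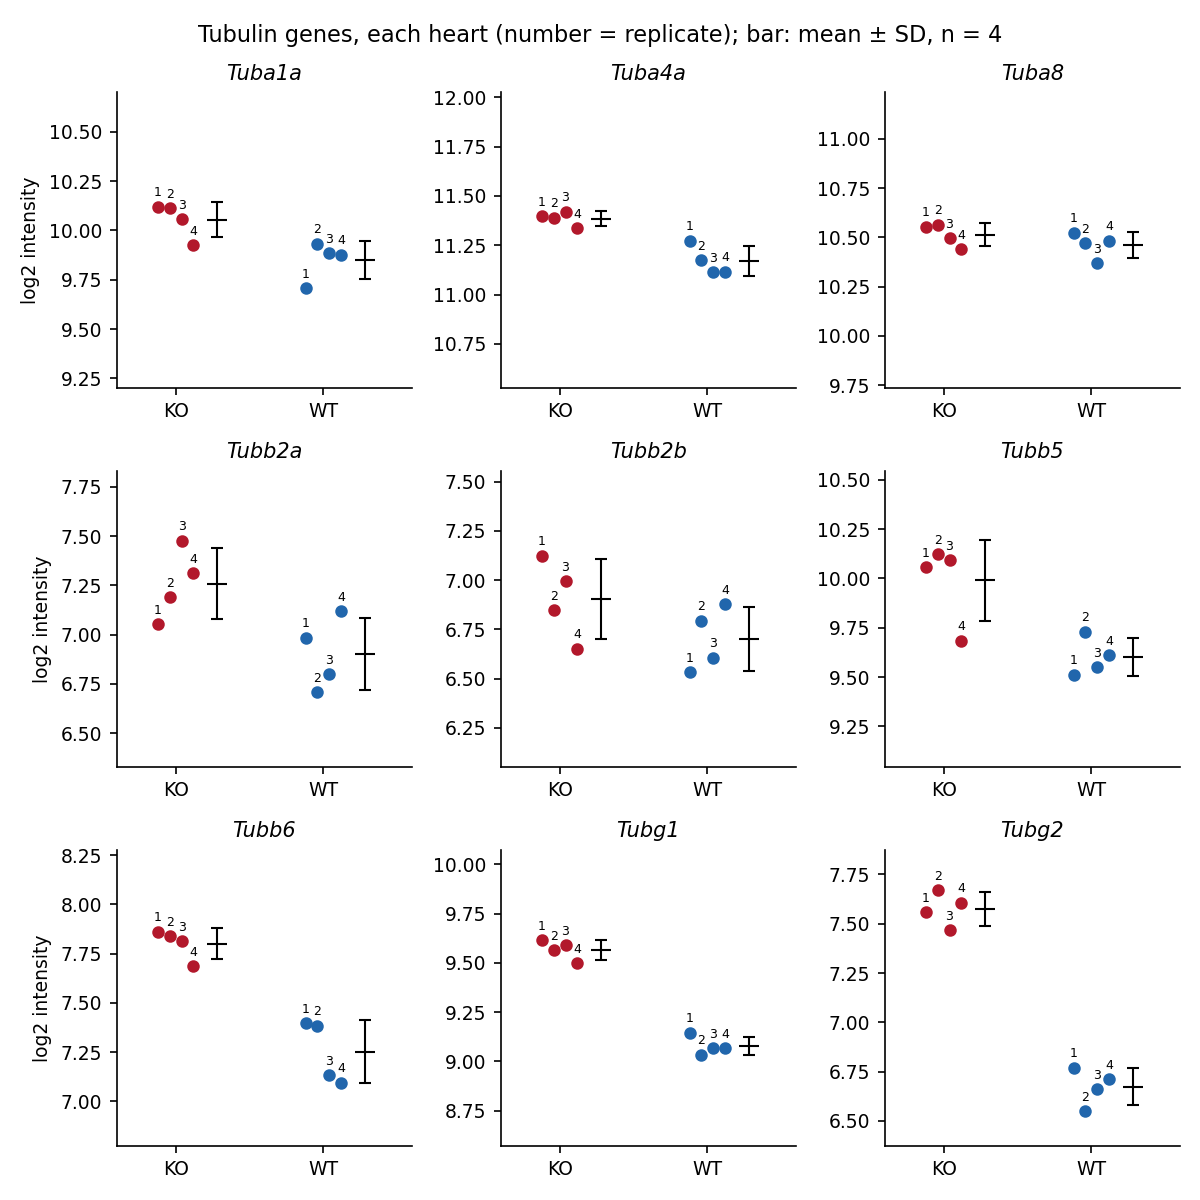
Log2 intensity (vertical axis, the same span in each panel, centred on the gene) of the 9 measured tubulin genes in 4 KO (left, red) and 4 WT (right, blue) hearts, numbered by replicate, with bars for mean ± SD. The groups are fully separated for Tubg2, Tubg1, Tubb6 and Tuba4a, KO replicate 4 sits apart from the other KO hearts for Tubb5, and the groups overlap for Tuba8, Tubb2a, Tubb2b, Tubb5 (through KO replicate 4) and, narrowly, Tuba1a.

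Tubg2 encodes the second gamma tubulin of mice, best known from brain. Its log2 intensity was 7.56, 7.67, 7.47 and 7.61 in KO replicates 1 to 4, against 6.77, 6.55, 6.66 and 6.71 in WT replicates 1 to 4. The lowest KO heart thus stood well above the highest WT heart. The means were 7.58 ± 0.09 in KO and 6.67 ± 0.09 in WT hearts (SD, n = 4), a difference of 0.90 (SE 0.06, 95% interval 0.76 to 1.05, adjusted p = 8.54e-06, limma). Sorted from the largest rise downwards, Tubg2 ranked 163 of 14950 genes.

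Tubg1, which encodes the main gamma tubulin of dividing and resting cells, is the direct neighbour of Tubg2 on chromosome 11 in the RefSeq gene order. It read 9.62, 9.57, 9.59 and 9.50 in the KO hearts, against 9.15, 9.03, 9.07 and 9.07 in the WT hearts. Both groups were tight and did not overlap. The means were 9.57 ± 0.05 in KO and 9.08 ± 0.05 in WT hearts (SD, n = 4), a difference of 0.49 (SE 0.05, 95% interval 0.38 to 0.60, adjusted p = 6.85e-05, limma).

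The beta tubulin genes all read higher in KO hearts, and 3 of 4 passed. Tubb6 encodes a beta isotype that is raised in regenerating and dystrophic skeletal muscle of mice. It read 7.86, 7.84, 7.81 and 7.69 in KO hearts, against 7.40, 7.38, 7.13 and 7.10 in WT hearts. The KO hearts were close together, and the WT hearts formed a higher and a lower pair, all of them below every KO heart. The means were 7.80 ± 0.08 in KO and 7.25 ± 0.16 in WT hearts (SD, n = 4), a difference of 0.55 (SE 0.08, 95% interval 0.37 to 0.73, adjusted p = 0.000747, limma).

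Tubb5 encodes the broadly expressed beta tubulin of most tissues. It read 10.06, 10.12, 10.09 and 9.68 in KO hearts, against 9.51, 9.73, 9.55 and 9.61 in WT hearts. KO replicate 4 fell inside the WT range, and the other KO hearts lay above it. The difference was 0.39 (SE 0.10, 95% interval 0.17 to 0.60, adjusted p = 0.014, limma), and without KO replicate 4 it was 0.49 (adjusted p = 0.000662).

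Tubb2a and Tubb2b are near-identical beta tubulin genes that lie close together on chromosome 13, and signal shared between their clusters was not tested. Tubb2a read 7.05, 7.19, 7.48 and 7.31 in KO hearts, against 6.98, 6.71, 6.80 and 7.12 in WT hearts. WT replicate 4 exceeded KO replicate 1, so the groups overlapped. The difference was 0.36 (SE 0.11, 95% interval 0.12 to 0.59, adjusted p = 0.0351, limma). The call was lost when any 1 of 6 arrays was left out. The difference was then 0.38, 0.28 and 0.34 without KO replicates 2, 3 and 4 (adjusted p = 0.0571, 0.0887 and 0.08, limma), and 0.38, 0.29 and 0.32 without WT replicates 1, 2 and 3 (adjusted p = 0.051, 0.0831 and 0.0868). With array weights it was 0.24 (adjusted p = 0.109). Tubb2b read 7.12, 6.85, 6.99 and 6.65 in KO hearts, against 6.53, 6.79, 6.61 and 6.88 in WT hearts, with the groups mixed. Its difference of 0.20 did not pass (95% interval -0.04 to 0.44, adjusted p = 0.214, limma).

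Of the 3 alpha tubulin genes measured, 2 passed. Tuba4a encodes an alpha tubulin that ends without the tyrosine carried by most others. It read 11.40, 11.39, 11.42 and 11.33 in KO hearts, against 11.27, 11.18, 11.11 and 11.12 in WT hearts. The groups did not overlap, but KO replicate 4 and WT replicate 1 were near each other. The difference was 0.22 (SE 0.05, 95% interval 0.10 to 0.33, adjusted p = 0.0127, limma).

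Tuba1a, an alpha tubulin gene prominent in developing neurons, read 10.12, 10.11, 10.06 and 9.93 in KO hearts, against 9.71, 9.93, 9.88 and 9.88 in WT hearts. KO replicate 4 and WT replicate 2 were nearly equal. The difference was 0.20 (SE 0.07, 95% interval 0.06 to 0.35, adjusted p = 0.046, limma). It no longer passed without KO replicates 1, 2 or 3 (adjusted p = 0.125, 0.118 and 0.0885) or without WT replicates 1, 3 or 4 (0.114, 0.0701 and 0.073). Tuba1a shares other clusters with Tuba1b and Tuba1c, and signal of these genes in the Tuba1a cluster was not tested. Tuba8, an alpha tubulin gene known from skeletal muscle, heart and testis, read 10.55, 10.57, 10.50 and 10.44 in KO hearts, against 10.52, 10.47, 10.37 and 10.48 in WT hearts. The groups interleaved, and the difference of 0.05 did not pass (95% interval -0.07 to 0.17, adjusted p = 0.542, limma). The upper end of that interval lay above 0, so a small rise of Tuba8 was not resolved with 4 arrays a group. The Tuba8 interval overlapped that of Tuba4a (0.10 to 0.33).

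**Figure D2:**
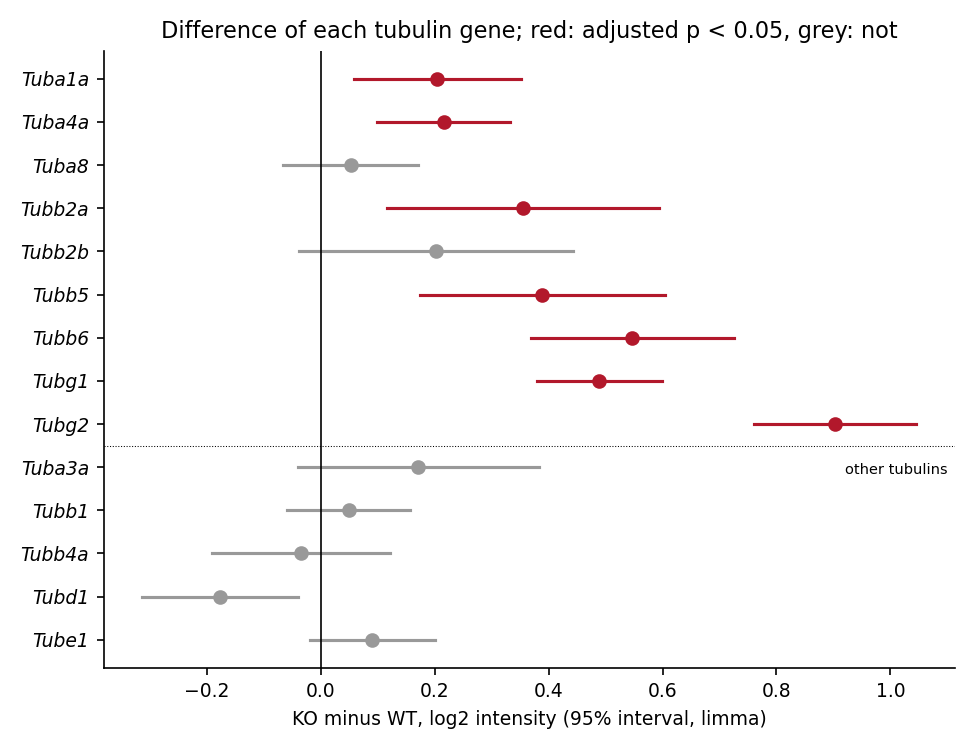
KO minus WT difference in log2 intensity (horizontal axis) with its 95% interval for the 9 measured members (above the dotted line) and the 5 other tubulin genes tested (below it); red marks an adjusted p under 0.05 in limma. Differences of members run from 0.05 for Tuba8 to 0.90 for Tubg2, and those of the other tubulins from -0.18 to 0.17.

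Tuba1b, one of the most widely expressed alpha tubulin genes, was read only by clusters that it shares with Tuba1c, 3 of which also carry Tuba1a. These were compared in a fit over all 27541 clusters, chosen after the data were seen, in which 6.38% of clusters were called higher. Cluster 10587780, which carries all 3 symbols, averaged 12.24 ± 0.07 in KO and 12.07 ± 0.05 in WT hearts (SD, n = 4), a difference of 0.17 (adjusted p = 0.0785, limma). Cluster 10432398, also of all 3, differed by 0.19 (adjusted p = 0.0665, limma) with no overlap of the groups. The cluster carrying Tuba1b and Tuba1c alone (10592058) differed by 0.18 (adjusted p = 0.0751, limma), also without overlap. The last cluster of all 3 (10426650) differed by 0.01 (adjusted p = 0.914). None of these can be assigned to 1 gene, and none passed. A cluster shared by Tubb2a, Tubb2b and a pseudogene (10399419) averaged 5.31 ± 0.07 in KO and 5.05 ± 0.04 in WT hearts (SD, n = 4) and passed (0.26, adjusted p = 0.0109, limma). Tubb4b, another beta tubulin gene, shares its 2 clusters with Zfp646: cluster 10519488 passed with 0.26 (adjusted p = 0.00882, limma) and cluster 10480628 did not, with 0.10 (adjusted p = 0.651).

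The signals of related genes did not all change alike. The log2 ratio of Tubg2 to Tubg1 within an array was -2.06, -1.90, -2.12 and -1.89 in KO hearts, against -2.38, -2.48, -2.41 and -2.36 in WT hearts. It shifted by 0.41, so the Tubg2 signal rose more than the Tubg1 signal (adjusted p = 0.0429, exact permutation test over the 8 arrays, two-sided, adjusted over 3 pairs). The ratio of Tuba4a to Tuba8 shifted by 0.16, with 0.82 to 0.92 in KO hearts and 0.63 to 0.75 in WT hearts (adjusted p = 0.0429, exact permutation test). For both pairs the groups did not overlap in any array, and the unadjusted p of 0.0286 is the smallest that 70 divisions of 8 arrays allow. The ratio of Tubb2a to Tubb2b shifted by 0.15 with wide overlap and did not pass (adjusted p = 0.429, exact permutation test). A pair of Tuba1a and Tuba1b could not be formed. Such ratios show unequal change of signal only, since levels of different clusters are not on a common scale. Whether the clusters respond equally to the same change in RNA was not tested.

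**Figure D3:**
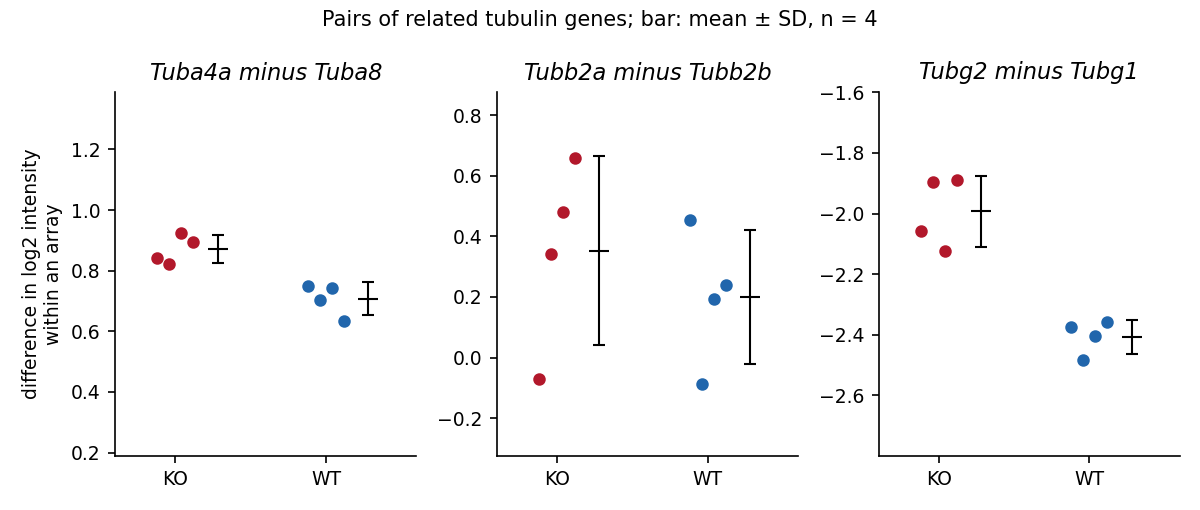
Difference in log2 intensity between the named genes within each array (vertical axis) in 4 KO (left) and 4 WT (right) hearts, with bars for mean ± SD. KO and WT hearts separate for Tubg2 over Tubg1 and for Tuba4a over Tuba8, and mix for Tubb2a over Tubb2b.

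The promoters of members with the largest and the smallest differences were set side by side. RefSeq promoter entries (GRCm38.p6) were at hand for 6 of the 9 measured members, and the 250 bases before the annotated start are shown for Tubg2, the largest rise, Tubb5 and Tuba4a, called higher with smaller differences, and Tuba8, the smallest difference. The letters CCAAT and GGGCGG, read on both strands, are in capitals, and no match overlapped another. CCAAT occurs in 33.8% and GGGCGG in 32.7% of 32851 promoter windows of that length, TATAAA in 12.4% and CACGTG in 6.02%.
Tubg2 (chr11:101155634-101155883, plus strand): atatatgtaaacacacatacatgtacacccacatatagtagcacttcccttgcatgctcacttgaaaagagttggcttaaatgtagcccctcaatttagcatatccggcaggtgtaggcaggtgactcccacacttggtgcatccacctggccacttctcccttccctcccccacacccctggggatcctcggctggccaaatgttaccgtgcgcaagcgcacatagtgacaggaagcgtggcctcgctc
Tubb5 (chr17:35838302-35838551, minus strand): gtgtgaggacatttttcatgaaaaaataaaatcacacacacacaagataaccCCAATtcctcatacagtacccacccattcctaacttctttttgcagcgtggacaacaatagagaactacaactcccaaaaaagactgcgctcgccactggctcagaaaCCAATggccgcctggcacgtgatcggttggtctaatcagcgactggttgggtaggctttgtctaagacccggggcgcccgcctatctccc
Tuba4a (chr1:75219295-75219544, minus strand): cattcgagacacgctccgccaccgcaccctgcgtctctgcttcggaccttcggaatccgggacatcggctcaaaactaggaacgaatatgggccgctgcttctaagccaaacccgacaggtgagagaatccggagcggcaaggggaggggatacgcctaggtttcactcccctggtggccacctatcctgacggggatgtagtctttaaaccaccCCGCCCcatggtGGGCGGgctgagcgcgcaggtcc
Tuba8 (chr6:121210484-121210733, plus strand): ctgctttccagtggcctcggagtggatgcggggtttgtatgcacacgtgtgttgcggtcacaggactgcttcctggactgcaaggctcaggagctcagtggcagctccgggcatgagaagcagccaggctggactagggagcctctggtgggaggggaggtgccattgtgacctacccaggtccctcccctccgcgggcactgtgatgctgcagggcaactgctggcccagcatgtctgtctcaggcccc

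The Tubg2 window held 0 matches to any of the 4 motifs. Tubb5 had 2 CCAAT matches and 1 CACGTG match, Tuba4a had 2 GGGCGG matches, and Tuba8 had 1 CACGTG match. Of the windows not printed, Tuba1a had 1 CCAAT and 1 GGGCGG match, and Tubb2a had 2 GGGCGG matches and 1 TATAAA match. No motif was common to the 5 risers with an entry. GC content was 52.8% for Tubg2, 49.2% for Tubb5, 61.6% for Tuba4a and 63.6% for Tuba8. These are descriptions of letters in 1 window per gene, and factor binding was not measured.

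The remaining tubulin genes gave no call in clusters of their own. Of 10 others listed, 8 had such a cluster, 5 were bright enough to test, and 0 of the 5 passed in limma in either direction (1, Tubd1, had an unadjusted p under 0.05). Over all genes tested 10.8% were called higher and 13.9% lower, so 0 of 5 does not set these genes apart. Tube1, an epsilon tubulin of centrioles, differed by 0.09 (adjusted p = 0.223, limma), Tuba3a by 0.17 (0.232), the platelet isotype Tubb1 by 0.05 (0.531) and the neural isotype Tubb4a by -0.03 (0.781). The delta tubulin gene Tubd1 averaged 6.38 ± 0.09 in KO and 6.56 ± 0.07 in WT hearts (SD, n = 4), a difference of -0.18 that did not pass (adjusted p = 0.0619, limma). The median difference of these 5 was 0.05, and no test of the members against them was made.

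Of the genes that work with gamma tubulin, 1 of 9 rose and 1 fell, with a median of -0.02. Over all genes tested 10.8% were called higher and 13.9% lower. Tubgcp4, a subunit of the gamma tubulin ring, read 8.77, 8.80, 8.82 and 8.72 in KO hearts, against 8.32, 8.33, 8.29 and 8.36 in WT hearts. That rise of 0.45 (SE 0.05, adjusted p = 7.49e-05, limma) was close in size to that of Tubg1. Mzt1, a small protein of the same ring, fell by 0.48 (SE 0.10, adjusted p = 0.00696, limma). The other 7 genes of the list did not pass, with differences between -0.26 for Mzt2, whose KO values lay wholly below WT (adjusted p = 0.0707), and 0.13 for the centrosome gene Cdk5rap2 (adjusted p = 0.251). Among them the ring subunits Tubgcp2, Tubgcp3, Tubgcp5 and Tubgcp6 differed by -0.02, -0.02, 0.02 and -0.14 (adjusted p = 0.14 for the last).

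Chaperones and cofactors that fold tubulin dimers showed no common direction: 2 of 21 rose and 3 fell, with a median of 0.00. These counts were near the shares over all genes tested (10.8% higher, 13.9% lower). Arl2, a small GTPase that acts with the tubulin cofactors, fell by 0.57 (SE 0.05, adjusted p = 1.5e-05, limma). Pfdn1, a prefoldin subunit, rose by 0.44 (SE 0.05, adjusted p = 0.000254), and of the cofactors Tbcb rose by 0.17 (adjusted p = 0.0452) while Tbce fell by 0.17 (adjusted p = 0.0389). The 8 subunits of the folding chaperonin (Tcp1 and Cct2 to Cct8) gave no call. Ttc5, which recognises nascent tubulin when its mRNA is degraded, differed by 0.13 (adjusted p = 0.373).

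Of the genes for enzymes that modify tubulin, and their partners, 2 of 17 rose and 4 fell, with a median of -0.05. The shares over all genes tested were 10.8% higher and 13.9% lower. Hdac6, which removes acetyl groups from alpha tubulin, read 6.53 to 6.68 in KO hearts, against 6.95 to 7.13 in WT hearts, and fell by 0.37 (adjusted p = 0.00124, limma). The opposing enzyme gene Atat1 differed by -0.11 and did not pass (adjusted p = 0.173). Sirt2, another gene of this list, differed by -0.14 and did not pass either (adjusted p = 0.0787, limma). Ttl, which puts the terminal tyrosine back, fell by 0.23 (SE 0.07, adjusted p = 0.0329), and of the genes that remove it Vash2 differed by -0.16 (adjusted p = 0.354) and the Vash partner gene Svbp by -0.08 (adjusted p = 0.373), neither passing, while Vash1 had no cluster of its own. The glutamylase gene Ttll11 fell by 0.33 (adjusted p = 0.00984) and Agbl5, which removes glutamates, fell by 0.35 (adjusted p = 0.0154). The glycylase gene Ttll3 rose by 0.22 (adjusted p = 0.0138) and the glutamylase gene Ttll7 by 0.39 (adjusted p = 0.034). Protein modification itself was not measured.

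Among proteins that bind, stabilise or sever microtubules, 3 of 30 rose (Kif2c among them) and 6 fell, with a median of -0.04. For these and for the motor genes below, the shares over all genes tested are 10.8% higher and 13.9% lower. Fign, a severing enzyme gene, fell by 0.98 (SE 0.11, adjusted p = 0.000174, limma), with 5.34, 5.55, 5.30 and 5.79 in KO hearts and 6.57, 6.65, 6.40 and 6.29 in WT hearts. Plus-end protein genes went both ways: Clasp1 and Mapre2 fell by 0.51 (adjusted p = 0.000213) and 0.25 (adjusted p = 0.00757), Clip1 rose by 0.36 (adjusted p = 0.0129), and Clasp2, Mapre1 and Mapre3 did not pass (-0.08, -0.12 and 0.00). The depolymerising mitotic kinesin gene Kif2c read 4.48 to 4.79 in KO hearts and 4.28 to 4.39 in WT hearts. All its WT values were under the limit for dim genes of 4.50, so it entered the test only through the KO hearts and its difference of 0.36 (adjusted p = 0.0048) is not read as support. Among motor genes 1 of 23 rose (Dynll1, 0.36, adjusted p = 0.0277) and 1 fell (Kif1c, -0.36, adjusted p = 0.000629), with a median of -0.03. Dynll1 was itself close to the limit for dim genes, at 4.81 to 5.12 in KO and 4.35 to 4.77 in WT hearts.

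**Figure D4:**
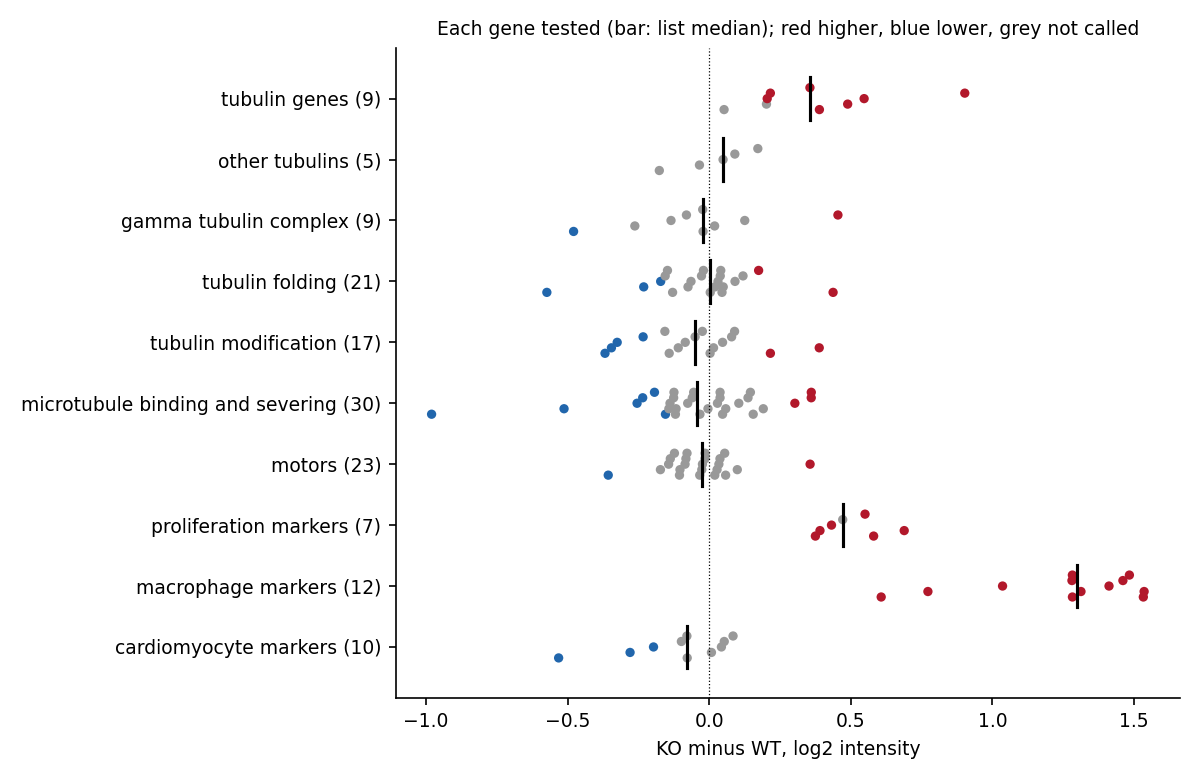
KO minus WT difference in log2 intensity (horizontal axis) of each gene tested, by gene list with the number of genes tested in brackets; vertical bars are list medians, and red, blue and grey mark genes higher, lower and not called in limma. Tubulin genes lie to the right of zero, most companion lists straddle it, and the macrophage markers (median 1.30) and proliferation markers (median 0.47) lie furthest right.

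Markers of some other cell types moved in the same hearts. The shares over all genes tested were 10.8% higher and 13.9% lower. All 12 macrophage markers rose (median 1.30), Lyz2 by 1.41 and Csf1r by 1.31, and their summed linear intensity was 6687 to 8676 in KO hearts, against 2936 to 3307 in WT hearts. Of 7 proliferation markers 6 rose (median 0.47), Pcna by 0.37 and Bub1b by 0.39, with a sum of 979 to 1103 in KO and 724 to 833 in WT hearts. The 9 tubulin members summed to 7152 to 7872 in KO hearts and 6221 to 6576 in WT hearts. KO replicate 4 had the lowest sum of the KO hearts for all 3 groups. The same held for the fibroblast markers (8808, against 9464 to 9839 in the other KO hearts). It was the lowest KO heart for 7 of the 9 members, Tubg2 and Tubb2a being the exceptions. This heart had the lowest array weight (0.445), and the share of all genes lowest in it was not counted. WT replicate 1 had the highest tubulin sum of the WT hearts (6576) but their lowest macrophage (2936), proliferation (724) and fibroblast (8376) sums. A linear sum is weighted to the bright genes, and the members were split in that heart. WT replicate 1 was the highest WT heart for Tuba4a, Tuba8, Tubb6, Tubg1 and Tubg2. It was the lowest for Tuba1a, Tubb5 and Tubb2b, and lay between for Tubb2a. Without KO replicate 4, 6 of the 9 members were called higher, Tubb2a losing its call. Of 9 fibroblast markers 3 rose (median 0.23), Postn by 0.64 and Lum by 0.38. These are stromal and matrix genes. Endothelial markers gave 1 rise of 8 (Flt1, 0.20), near the share over all genes tested, with Vwf at 0.15. Of the 8, 6 had a positive difference, with a median of 0.06. Cardiomyocyte markers gave 0 rises and 3 falls of 10 (median -0.08), where Ryr2 fell by 0.53 and Tnnc1 fell by 0.28. None of the 7 smooth muscle, 3 nerve or 3 lymphocyte markers tested passed in limma, and 1 of them had an unadjusted p under 0.05 (Acta2, 0.49, adjusted p = 0.0526). Of the 7 smooth muscle markers only 3 had a positive difference, with a median of -0.01, and Myh11 differed by -0.21 (adjusted p = 0.155, limma). The part of these cells in the tubulin differences was not tested. The neuronal tubulin gene Tubb3 read 3.95 to 4.19 in KO and 3.76 to 4.43 in WT hearts, under the limit for dim genes.

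The genes whose pattern over the 8 arrays was most like that of Tubg2 were Egln3, a prolyl hydroxylase gene of the oxygen-sensing pathway (Pearson r = 0.99, KO minus WT 0.82), Pir (r = 0.99, 0.59) and Rnf39 (r = 0.99, 0.52). Among members Tubg1 (r = 0.98), Tubb6 (r = 0.91) and Tuba4a (r = 0.90) came closest. All these values share the KO and WT contrast and the same arrays. With group means removed, the closest genes were Kcnk7 (r = 0.98), Mir194-2 (r = 0.98) and Zfp189 (r = 0.98), and the members ranged from -0.48 for Tubb2b to 0.31 for Tuba8, so with 8 arrays no member followed Tubg2 closely within the groups. These are descriptions only.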

How the data were processed

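Values were taken from the deposited table, which holds 1 processed intensity per transcript cluster and array on a linear scale, made by the authors with Partek and RMA per the submitters' processing notes, with versions, order and genome build not given in the sources used here. Raw scans were not used here, so scan batches could not be examined. Intensities were converted to log2 with no further normalisation. Of 27541 clusters, 21631 carry 1 gene symbol in the platform annotation, 1317 several and 4593 none. The brightest single-symbol cluster per gene was kept (19933 genes), and the dimmest 25% of genes by mean over all arrays (log2 under 4.50) were left out, leaving 14950. Groups were taken from the genotype labels and compared by limma's moderated test (version 3.58.1, R 4.3.3) on 6 residual degrees of freedom, two-sided, with Benjamini-Hochberg adjustment over all genes tested and a threshold of 0.05, after testing the script on simulated data. The members and gene lists were chosen with earlier results of these data known. Genes named beside the members are the up to 4 called genes of lowest p in each companion list and up to 2 of lowest p in each marker list. The tyrosination and acetylation genes Ttl, Vash1, Vash2, Svbp, Hdac6 and Atat1 are also named, with the 3 genes most like the member with the largest difference. Ttll7, Sirt2, the other gamma ring genes, Clip1, Clasp2, Mapre1, Mapre3 and the chaperonin subunits were named after their values were seen. Precision is limited by 4 arrays a group, which the labels call biological replicates. Alternatives covered normalisation, dim-gene filters, array weights, the replicate block and leaving out each array. Promoter letters are from RefSeq (GRCm38.p6), whose build may differ from that of the array annotation.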

Additional observations from a re-analysis of the deposited data

Results flagged for a closer look

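In 34 groups of 4 arrays examined, 2 tubulin values stood far from the others of their group, by a gap to the nearest array that took up most of the group's range. Chance gives about 1 such value in 20 groups, and 2 in 34 groups is near that rate. Tubb5 in KO replicate 4 was 9.68, against 10.06 to 10.12 in the other KO hearts, a gap over range of 0.848. Tuba3b, a tubulin gene under the limit for dim genes, was 3.27 in KO replicate 1, against 3.84 to 3.91 in the other KO hearts, a gap over range of 0.889. The sources of both were not tested.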

How the results depend on the processing

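The directions of the 9 members held under all 18 alternatives, and 7 of them (all but Tuba1a and Tubb2a) kept their side of the threshold (limma). Several alternatives leave the difference itself unchanged and could not alter a direction. These are the dim-gene filters, variances modelled by intensity, the mean of a gene's clusters, the replicate block and the fit over all clusters. At an adjusted p under 0.01, 2210 genes were called and 3 members were higher, against 5 to 7 members under the other alternatives; the cause of each lost call below was not tested. Tuba1a lost its call with array medians subtracted (0.18, adjusted p = 0.0854), with no filter (0.20, 0.0637), over all clusters (0.20, 0.0805) and without 6 of the 8 arrays in turn; leaving out each array gave 0.16 to 0.25, and the call held without KO replicate 4 or WT replicate 2. Tubb2a lost its call with array weights (0.24, 0.109), over all clusters (0.36, 0.0602) and without 6 of the 8 arrays in turn; leaving out each array gave 0.28 to 0.43, and the call held without KO replicate 1 or WT replicate 4. The fit over all clusters was chosen after the data were seen. Equal replicate numbers did not pair samples (correlations of deviations -0.038, 0.034, -0.038 and 0.076); with the replicate block 3382 genes and 6 members were called, and Tuba1a gave 0.20 (adjusted p = 0.0745). Under 11 alternatives the 2 isotype pairs that were called kept their calls, and Tubb2a over Tubb2b was not called in any of the 11. Most of these could not have lost a call. Fully separated groups stay separated when 1 array is left out, so the permutation p stays the smallest possible. Averaging clusters changes nothing, since each member has 1 cluster. Only the change of normalisation and a constant added before the log2 could have lost a call. The planned Tuba1a and Tuba1b pair was not run.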
